A study of Canis lupus familiaris with 12 samples.

Results

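The comparison described here sets the liver of senior dogs against that of young adult dogs, averaged over 2 diets, and asks which transcripts differed with age in the same way on both. All 12 arrays of the series entered it, 1 array per dog and 3 dogs in each of 4 groups. Liver RNA came from female beagles that were senior (12 years old, 11.1 years at baseline) or young adult (1 year old, 8 weeks at baseline) after 12 months on an animal protein-based diet (APB, with 28% protein, 23% fat and 5% fiber) or on one based on plant protein (PPB, with 26% protein, 11% fat and 15% fiber). The 6 senior dogs (senior APB and senior PPB) were set against the 6 young dogs (young APB and young PPB), the difference on APB and the difference on PPB were averaged, and every probe set other than the array controls was tested. According to the study's methods, senior dogs were fed a restricted amount that held body weight while young dogs grew and ate freely, and each age came from its own supplier. Age, feeding, growth and supplier therefore cannot be told apart in any difference below.

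The liver handles nutrients, makes most plasma proteins, conjugates and clears foreign compounds, and holds Kupffer cells, its resident macrophages, and cholangiocytes, which line the bile ducts, beside the hepatocytes. With age the liver is known for changes in detoxification, in inflammatory tone and in the response to growth signals. In whole liver tissue, fewer cells of a type and less RNA per cell cannot be told apart.

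The authors deposited GCRMA values on the log2 scale. Of 23913 probe sets, 77 were controls and 23836 were tested, of which 10549 had exactly 1 gene symbol (6540 genes), 138 had several and 13149 had none. The hepatocyte markers stood at a mean of 12.7 to 13.1 in senior dogs and 12.7 to 13.1 in young dogs over 14 measured genes, so the tissue label held in both ages. The gap between the 3' and 5' probe sets of 4 control transcripts, which widens as RNA degrades or labelling shortens, was 4.42 ± 1.58 on the log2 scale in senior dogs and 5.92 ± 2.45 in young dogs (SD, n = 6 each, difference -1.51, exact permutation p = 0.155, 2-sided, labels permuted within diet). Young APB 1 and young APB 2 were the widest at 9.21 and 8.80, and their part in the differences below was tested only by leaving both out or by using the gap as a covariate.

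With both an adjusted p below 0.1 and a difference above 2-fold required, 8 probe sets (5 genes and 1 unnamed transcript) passed, which was 0.0336% of those tested. Compared with young adult dogs, 7 were up-regulated and 1 was down-regulated in senior dogs. WFDC2 and LOC607080 showed the widest differences, followed by GPM6A, LOC476006 and GBGT1. In all 8, every senior dog lay apart from every young dog, and the difference was more than 2-fold on each diet.

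LOC476006 is the locus that the study listed under the name glutathione S-transferase pi 1, an enzyme that joins glutathione to reactive compounds. The RefSeq gene table used here keeps it as a separate locus whose nearest named neighbours are GSTP1 and NDUFV1 on one side and CABP2 on the other, and no probe set carried the symbol GSTP1 alone. Signal from these near copies cannot be told apart on such probe sets. On 1592145_s_at, the senior dogs had a lowest value of 11.5, a median of 11.6 and a highest of 12.2, and the young dogs had 8.13, 8.34 and 10.3. The senior values were tight, whereas young APB 1 (10.3) and young APB 2 (9.76) stood above the other young dogs without reaching the seniors. The senior minus young difference was 2.90 ± 0.30 (SE, 7.45-fold, limma adjusted p = 0.032), and a further 2 bright probe sets gave 2.87 (adjusted p = 0.041) and 2.77 (adjusted p = 0.032). The remaining 2 of the 5 probe sets of LOC476006 were dim (mean 4.53 and 2.03), and their differences of 0.12 (adjusted p = 0.86) and 0.01 did not pass. The difference was wider on PPB (12.6-fold) than on APB (4.41-fold) on 1592145_s_at. The unadjusted limma p of that contrast between diets was 0.033, and its adjusted p was not past 0.1.

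GBGT1, the Forssman glycolipid synthase that adds a sugar to globoside, was higher in each senior dog. Its lowest, median and highest values were 6.58, 6.96 and 7.06 in senior dogs and 4.29, 4.79 and 5.45 in young dogs. The nearest senior and young dogs were 1.13 apart on the log2 scale, and the young dogs varied more than the seniors (senior SD 0.185, n = 6). The difference was 2.00 ± 0.20 (SE, 4.01-fold, limma adjusted p = 0.032), with 3.59-fold on APB and 4.49-fold on PPB. Of 7 measured genes of glycosphingolipid and glycan synthesis, GBGT1 alone passed the test. GLB1, lysosomal beta-galactosidase, and GALNT13, which starts O-linked glycans, had differences of 0.94 and -1.67 that did not pass (limma adjusted p = 0.42 and 0.44).

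WFDC2 encodes a secreted protease-inhibitor-like protein of epithelia. Senior APB dogs 1, 2 and 3 had values of 10.6, 11.0 and 10.2, and senior PPB dogs 1, 2 and 3 had 6.25, 10.8 and 8.20. The young APB dogs had 3.82, 3.99 and 3.8, and the young PPB dogs had 4.53, 3.77 and 3.62. The young dogs were low and close together, and the senior PPB dogs were spread over more than 4 log2 units. The difference was 5.6 ± 0.66 (SE, 48.5-fold, limma adjusted p = 0.043), and it was 107-fold on APB and 22.0-fold on PPB (unadjusted limma p of the contrast between diets 0.12). A dim second probe set, 1597840_at, differed by only 0.40 (adjusted p = 0.57) with all senior dogs again above all young dogs.

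WFDC2 was 1 of 9 measured cholangiocyte markers, and none of the other 8 passed the test. The mean of the 9 markers was 5.43 to 6.5 in senior dogs and 4.75 to 5.40 in young dogs, which did not overlap, but without WFDC2 it was 5.22 to 5.96 and 4.87 to 5.51, which did. SOX9, a defining duct factor, stood at 2.44 to 2.51 in senior dogs and 2.46 to 2.50 in young dogs, near the floor of the array. EPCAM, which marks biliary epithelium, was 7.88 to 9.40 in senior dogs and 8.33 to 9.06 in young dogs. Of the 9 markers, 8 had a difference above 0, and WFDC2 and ANXA4 were higher at an unadjusted limma p under 0.05. Over 6540 genes with 1 probe set each, 3340 were above 0 and 292 were higher at such a p. ANXA4 had a difference of 1.32 (2.62 on APB and 0.02 on PPB) and SPP1 had 1.01 (1.34 and 0.69). Neither passed the test (limma adjusted p = 0.67 and 0.71). Without young APB 1 and 2, 9 markers were above 0 and 1 had such a p. Of the 6540 genes, 3905 were above 0 and 151 were higher at such a p in that setting. The part of these markers in the WFDC2 difference was not tested.

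GPM6A, a membrane glycoprotein best known from neurons, was carried by 2 probe sets with the same direction. On 1604503_at the senior dogs had a lowest, median and highest value of 6.83, 7.33 and 8.19, and the young dogs had 3.41, 4.30 and 5.35. The ages were 1.48 apart at their nearest dogs. The difference was 3.09 ± 0.36 (SE, 8.52-fold, limma adjusted p = 0.043), with 8.73-fold on APB and 8.32-fold on PPB. On 1603937_at it was 2.47 ± 0.34 (5.53-fold), which did not pass (adjusted p = 0.115). The other 9 measured neural markers averaged 2.54 to 2.62 in senior dogs and 2.54 to 2.66 in young dogs, near the floor of the array in both ages.

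LOC607080, which the study listed as MUSTN1, a musculoskeletal embryonic nuclear protein, lies beside ITIH4 and ITIH3 in the RefSeq gene table. The senior APB dogs had 9.28, 9.32 and 8.88, and the senior PPB dogs had 9.77, 9.87 and 9.37. The young APB dogs had 6.83, 3.35 and 3.33, and the young PPB dogs had 3.35, 4.25 and 3.37. Young APB 1 was the highest of the young dogs by far, and its array had the widest 3' to 5' gap. The difference was 5.33 ± 0.58 (SE, 40.3-fold, limma adjusted p = 0.038), 25.2-fold on APB and 64.7-fold on PPB. Its other probe set was dim (mean 2.18) with a difference of 0.03. The 13 measured muscle markers averaged 3.17 to 3.37 in senior dogs and 3.17 to 3.30 in young dogs, and 11 of them had a mean under 4.

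The only probe set past the threshold that was lower in senior dogs, 1589612_s_at, had no gene symbol. The senior dogs had a lowest, median and highest value of 3.58, 3.73 and 4.15, the young APB dogs had 7.67, 7.27 and 7.22, and the young PPB dogs had 5.91, 5.91 and 5.29. The young APB dogs all lay above the young PPB dogs, and the seniors of both diets lay together below them. The difference was -2.78 ± 0.14 (SE, limma adjusted p = 0.00038), with 11.8-fold lower values on APB and 3.98-fold lower values on PPB. The contrast between diets had an unadjusted limma p of 0.00045, and no contrast between diets passed across all probe sets (smallest adjusted p = 0.839; 700 probe sets at an unadjusted p under 0.05).

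**Figure D1:**
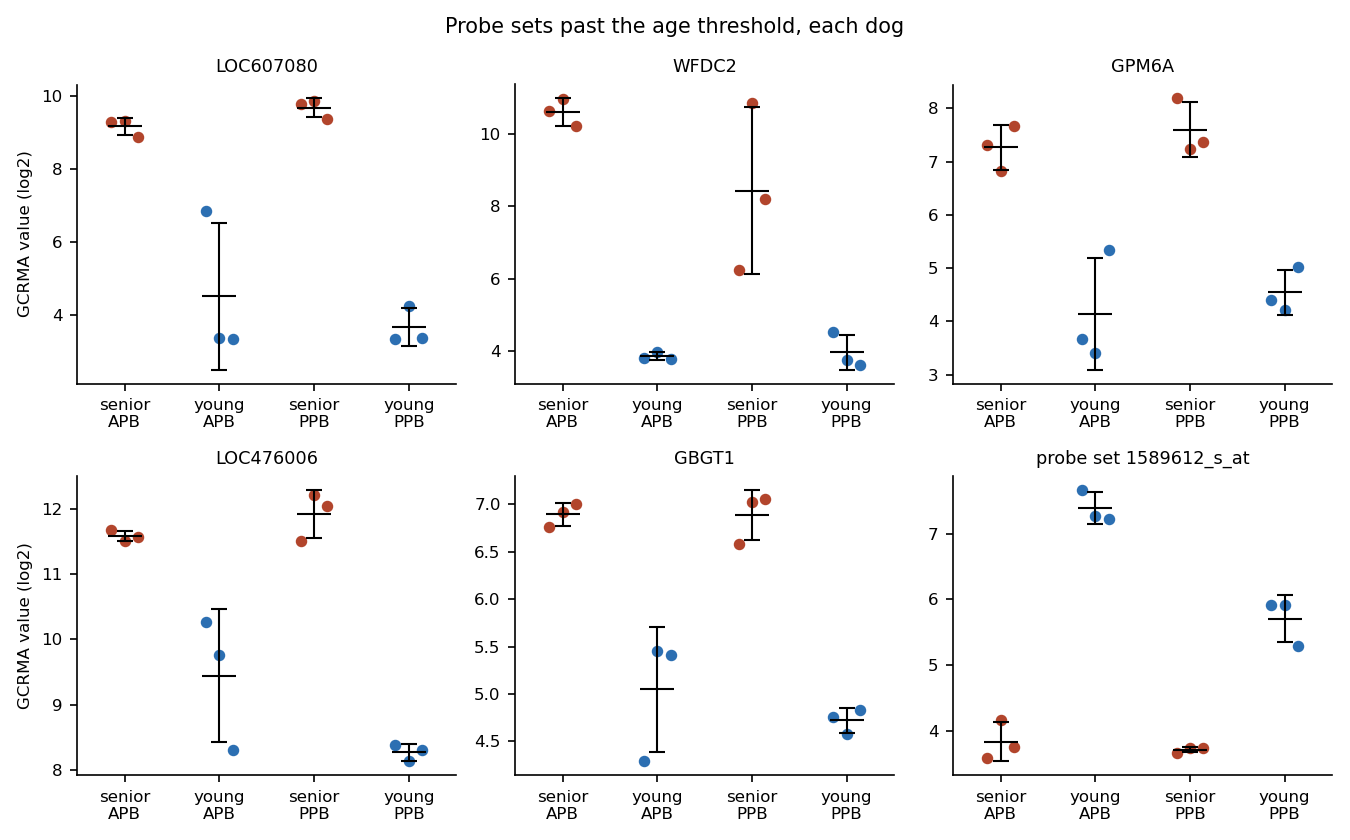
GCRMA values on the log2 scale (vertical axis) of each dog in the 4 groups (horizontal axis) for 6 of the 8 probe sets past the age threshold. Points are dogs, horizontal marks are group means and whiskers are the SD of 3 dogs. WFDC2 seniors lie between 6.25 and 11.0 and young dogs between 3.62 and 4.53, and 1589612_s_at is the one with seniors below.

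Leaving out a dog moved the number of probe sets past the threshold from 1 to 239. It was 1 without senior APB 1, senior APB 2 or senior PPB 3, 2 without senior PPB 2, 19 without young PPB 3, 45 without senior PPB 1 and 239 without young APB 3.

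More than the 8 probe sets separated the ages completely. In 51 probe sets the 6 senior dogs lay above or below all 6 young dogs with more than a 2-fold mean difference, 25 higher (0.105% of those tested) and 26 lower (0.109%). Such separation fixes the exact permutation p at its smallest, 0.005 over 400 assignments within diets, so that p adds nothing to it. Of the 51, 38 were more than 2-fold on each diet, 22 higher and 16 lower, with a median size of 1.99 on the log2 scale. Over all probe sets tested, 211 were more than 2-fold on both diets in the same direction, whether separated or not. A further quantile normalization of the arrays gave 30 higher and 17 lower in place of 25 and 26. The 22 higher probe sets held 11 named genes and 6 probe sets with no symbol. The 16 lower ones held 3 named genes and 13 probe sets with no symbol.

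**Figure D2:**
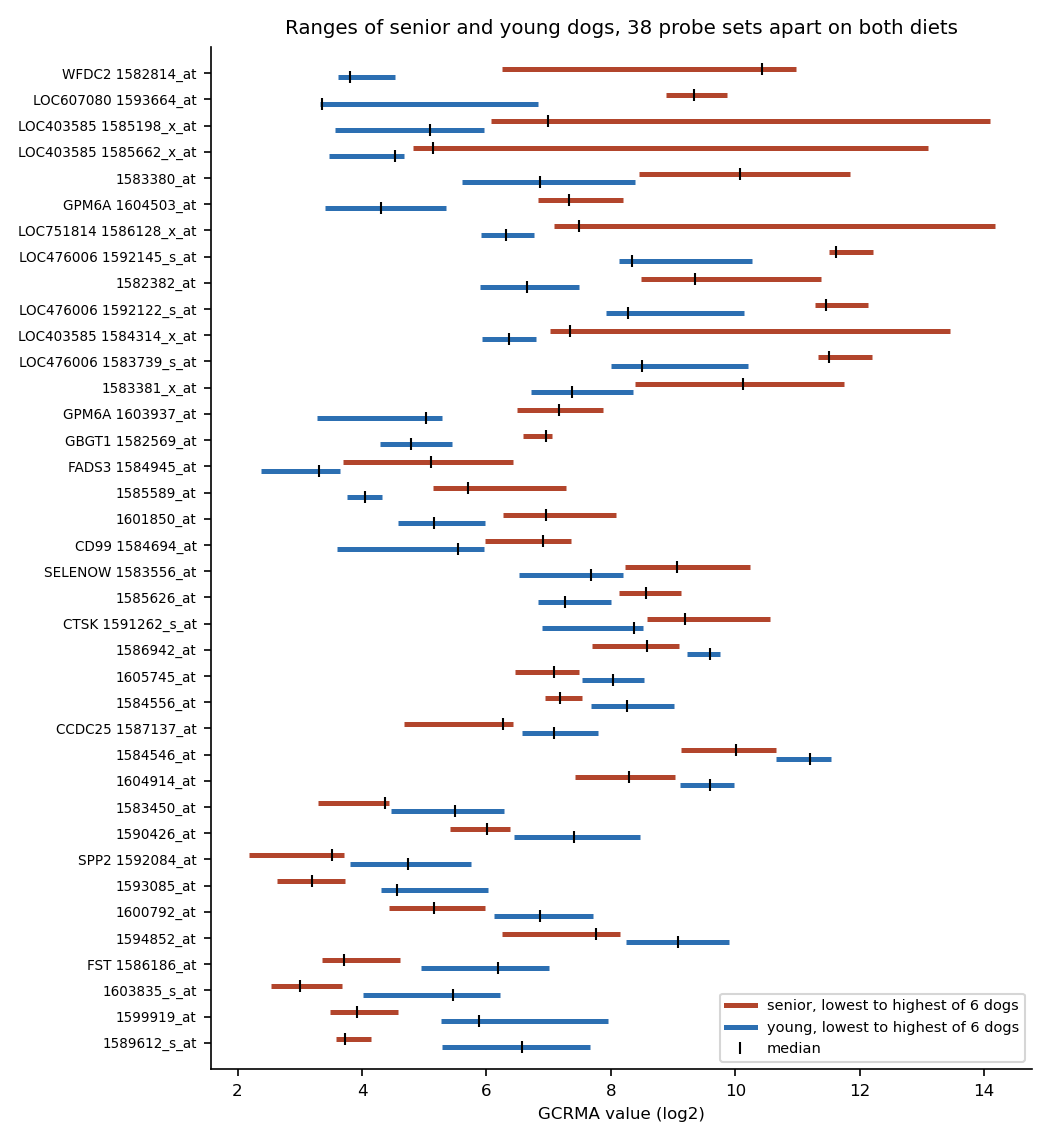
Lowest to highest GCRMA value on the log2 scale (horizontal axis) of the 6 senior and the 6 young dogs, for the 38 probe sets (rows, ordered by difference) that separated the ages and were over 2-fold on both diets. Ticks are medians. No senior bar overlaps its young bar, and the bars of the serum amyloid A loci LOC403585 and LOC751814 are long because 2 senior dogs reached 11.6 to 14.2.

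The difference on APB was larger than that on PPB in 23 of the 38. No share over all probe sets was computed for that count, so it is not read as a trait of the 38. The contrast between diets had an unadjusted p under 0.05 in 4 of the 38, which were the LOC476006 probe sets and 1589612_s_at.

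**Figure D3:**
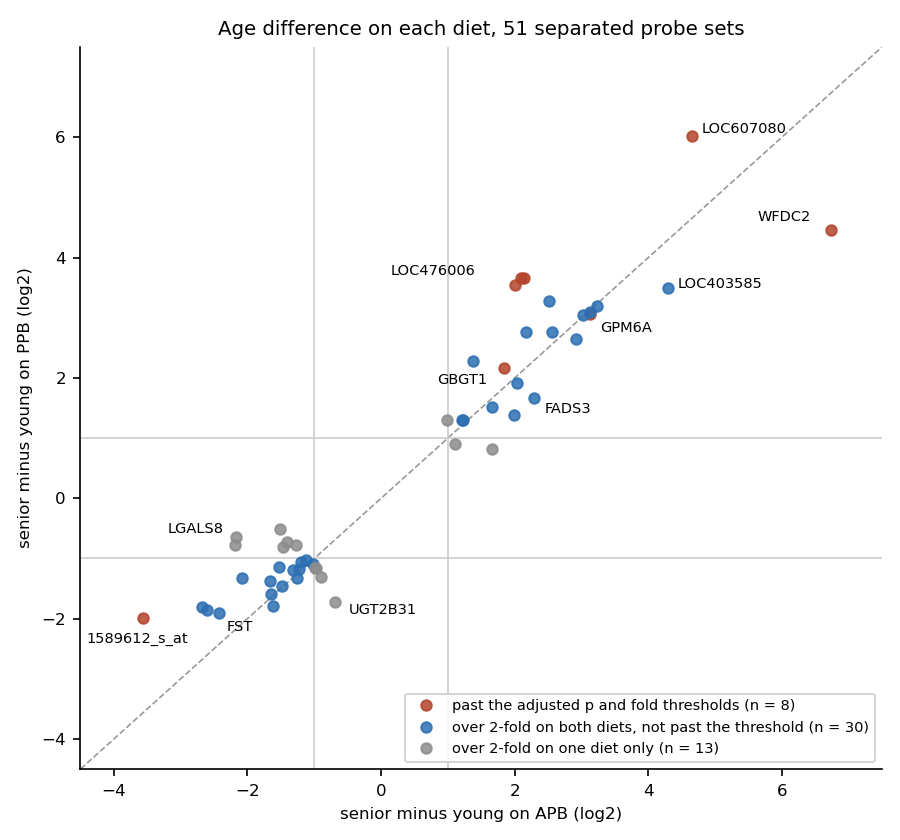
Senior minus young difference on PPB (vertical axis, log2) against that on APB (horizontal axis, log2) for the 51 probe sets that separated the ages by over 2-fold. Grey lines mark 2-fold and the dashed line marks equal differences. WFDC2 (6.74 on APB, 4.46 on PPB) lies below it and LOC607080 (4.65 and 6.01) above it.

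Serum amyloid A is an acute-phase protein that the liver secretes in inflammation. Both loci that RefSeq gives the synonym SAA, LOC403585 and LOC751814, had 11 probe sets, of which 4 separated the ages, yet none passed the test (limma adjusted p = 0.65 to 0.77 for these 4). Of the others, 4 of LOC403585 did not separate the ages and had differences of 2.27 to 4.11, and the remaining 3 were dim (mean 2.17 to 2.65) with differences of -0.01 to 0.47. On LOC751814 (1586128_x_at), the senior APB dogs had 12.9, 7.68 and 7.22, and the senior PPB dogs had 7.08, 14.2 and 7.29. The young APB dogs had 6.51, 5.92 and 6.28, and the young PPB dogs had 6.28, 6.34 and 6.77. Senior APB 1 and senior PPB 2 carried most of the mean difference of 3.04 ± 1.41 (SE, 8.22-fold), and the other 4 seniors were only 0.309 or more above the highest young dog. The same 2 dogs led on the LOC403585 probe sets 1585198_x_at (12.8 and 14.1; difference 3.89), 1585662_x_at (11.6 and 13.1; 3.22) and 1584314_x_at (12.7 and 13.5; 2.78). SAA1, the next locus along, had a difference of 2.41 (2.15 on APB and 2.66 on PPB; adjusted p = 0.63), with senior dogs at 5.76, 7.70 and 11.0 (lowest, median, highest) and young dogs at 4.71, 5.92 and 6.55. These loci are near copies, and probe sets ending in x_at can share signal between them.

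**Figure D4:**
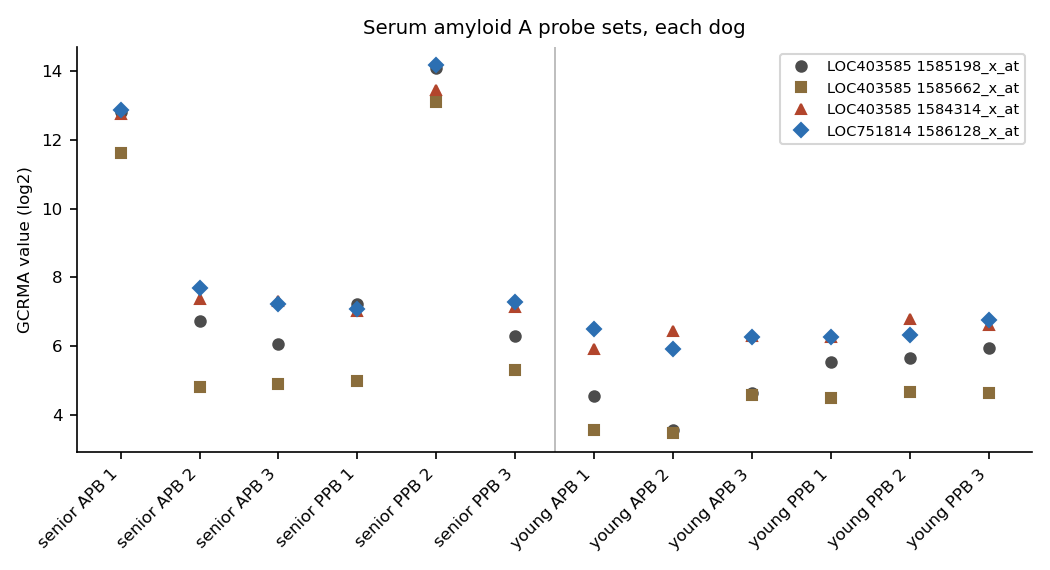
GCRMA values on the log2 scale (vertical axis) of the 4 serum amyloid A probe sets that separated the ages, for each of the 12 dogs (horizontal axis). Senior APB 1 and senior PPB 2 stand at 11.6 to 14.2. The other senior dogs lie nearer to the young dogs but above all of them on each probe set. On 1585198_x_at they are at 6.08 to 7.24 and the young dogs at 3.56 to 5.96.

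The other named genes that were higher on both diets had narrower gaps between the ages, and none passed the test. FADS3, of the fatty acid desaturase family, had a lowest, median and highest value of 3.70, 5.11 and 6.43 in senior dogs and 2.38, 3.32 and 3.65 in young dogs. Its nearest dogs were 0.042 apart. The difference was 1.98 ± 0.43 (SE, 3.96-fold, limma adjusted p = 0.36). It was the one member of 14 measured genes of fatty acid and triglyceride synthesis with an unadjusted p under 0.05.

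SELENOW, a small selenoprotein of redox defence, ranged from 8.22 to 10.2 (median 9.07) in senior dogs and from 6.52 to 8.20 (median 7.68) in young dogs. The difference was 1.59 ± 0.39 (SE, 3.0-fold, limma adjusted p = 0.39). CD99, a surface glycoprotein of leukocytes and endothelium, ranged from 5.97 to 7.35 (median 6.91) in senior dogs and from 3.60 to 5.96 (median 5.54) in young dogs. The lowest young values of both SELENOW and CD99 were those of young APB 1 and young APB 2. These arrays had the widest 3' to 5' gap. Their part was not tested for single genes beyond the alternatives run. Over all alternatives, the lowest difference was 1.07 for SELENOW, 0.93 for CD99 1584694_at and 0.71 for CD99 1583950_s_at. All stayed above 0, and both of these CD99 values were under 2-fold. The CD99 difference was 1.69 ± 0.40 on 1584694_at (3.22-fold, adjusted p = 0.38) and 1.24 on a brighter probe set, 1583950_s_at, where it was 3.17-fold on APB and 1.76-fold on PPB. CTSK, the lysosomal protease cathepsin K, ranged from 8.59 to 10.6 (median 9.20) in senior dogs and from 6.89 to 8.52 (median 8.37) in young dogs, a difference of 1.25 ± 0.37 (2.38-fold, adjusted p = 0.51).

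Of the 6 unnamed probe sets that were higher on both diets, 1582382_at had the widest gap. Its lowest, median and highest values were 8.48, 9.35 and 11.4 in senior dogs and 5.90, 6.66 and 7.49 in young dogs. The difference was 2.89 ± 0.49 (SE, 7.42-fold, limma adjusted p = 0.23). The other 5 had differences of 1.26 to 3.11.

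Among the 16 lower probe sets, 3 had a named gene, and none of these passed the test. FST, follistatin, binds and blocks activin. On 1586186_at the senior dogs had a lowest, median and highest value of 3.35, 3.72 and 4.60, and the young dogs had 4.95, 6.18 and 7.01. The young values were spread, with young APB 1 and young APB 2 the highest. The difference was -2.16 ± 0.35 (SE, 4.48-fold lower, limma adjusted p = 0.21), 5.39-fold on APB and 3.73-fold on PPB. The other FST probe sets had the same direction with smaller sizes, -0.59 on 1583480_s_at and -0.42 on 1601415_at.

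SPP2, secreted phosphoprotein 2 of bone and liver, ranged from 2.18 to 3.70 (median 3.52) in senior dogs and from 3.8 to 5.76 (median 4.74) in young dogs. The difference was -1.52 ± 0.40 (SE, limma adjusted p = 0.44). The brighter probe set 1590530_at gave -1.32 (-2.03 on APB and -0.61 on PPB) without separating the ages, and was under 2-fold on PPB. CCDC25, a coiled-coil protein, ranged from 4.67 to 6.43 (median 6.26) in senior dogs and from 6.57 to 7.79 (median 7.08) in young dogs, a difference of -1.20 ± 0.32 (adjusted p = 0.44). The widest of the unnamed lower probe sets after 1589612_s_at was 1599919_at, at 3.49, 3.93 and 4.58 in senior dogs and 5.27, 5.88 and 7.96 in young dogs (lowest, median, highest). Its difference was -2.25 ± 0.34 (SE, adjusted p = 0.19). The remaining 11 probe sets without symbol included 1603835_s_at with a difference of -2.23.

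In 13 of the 51 probe sets the separation was complete but the difference was over 2-fold on 1 diet only, 8 on APB and 5 on PPB. Of these, 3 were higher and 10 lower in senior dogs. The genes here were named after their values were seen. FUNDC2, a mitochondrial outer membrane protein, reached 2.45-fold on PPB and 1.98-fold on APB. CLPTM1L reached 2.15-fold on APB and 1.86-fold on PPB.

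Among the lower ones, LGALS8, a galectin, had 4.56-fold lower values on APB and 1.71-fold on PPB on the dimmest of its 3 probe sets. The brighter ones did not separate the ages and had the larger difference on PPB, at 0.05 on APB and -1.20 on PPB for the brightest and -0.31 and -1.37 for the other. LOC479911 had 4.5-fold lower values on APB and 1.57-fold on PPB, and among its 4 other probe sets the brightest gave -2.18 on APB and -0.79 on PPB without separating the ages, whereas a dim one had a difference of 0.66. UGT2B31, a canine glucuronosyltransferase, had 3.30-fold lower values on PPB and 1.61-fold on APB, and its nearest dogs were 0.0032 apart. A brighter UGT2B31 probe set gave -0.42 and did not separate the ages. EGFR, the epidermal growth factor receptor of hepatocytes, ranged from 7.05 to 8.10 (median 7.87) in senior dogs and from 8.28 to 9.34 (median 8.90) in young dogs, a difference of -1.07 ± 0.22 (SE, limma adjusted p = 0.35). SCG5 and NUSAP1, the latter a mitotic spindle protein, had differences of -1.06 and -1.14. None of these contrasts between diets had an adjusted p under 0.1, so the diets were not shown to differ for any of them.

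Over all probe sets, 628 were higher (2.63%) and 1079 lower (4.53%) in senior dogs at an unadjusted limma p under 0.05. Lists of genes by cell type and pathway were read against the same counts over 6540 genes with 1 probe set each, of which 292 were higher, 340 were lower and the median difference was 0.00.

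The macrophage and Kupffer cell markers had the highest median difference of the lists. All 17 measured markers had a difference above 0, with a median of 0.66 (0.63 on APB and 0.91 on PPB). At an unadjusted p under 0.05, 5 of 17 were higher and none lower, and none passed the adjusted threshold. Without young APB 1 and 2, 16 of 17 were above 0, the median was 0.65 and 1 had an unadjusted p under 0.05. The counts over all 6540 genes moved as well. With all dogs, 3340 were above 0, 292 were higher and 340 were lower at such a p. Without those young APB arrays, 3905 were above 0, 151 were higher and 259 were lower. With the 3' to 5' gap as a covariate, these counts were 3705, 205 and 284. In that setting 16 of the 17 markers were above 0, their median was 0.64 and none had an unadjusted p under 0.05. C1QA, a chain of the first complement component made by macrophages, ranged from 10.0 to 11.8 (median 11.2) in senior dogs and from 8.28 to 10.8 (median 9.29) in young dogs, a difference of 1.46 ± 0.53 (SE, limma adjusted p = 0.61). C1QC had a difference of 1.37 and LAPTM5, a lysosomal protein of blood cells, 1.44. The mean of the list was 8.03 to 9.38 in senior dogs and 7.25 to 8.73 in young dogs, which overlapped.

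Genes of antigen presentation and the interferon response had a median of 0.53, with 12 of 13 above 0 and 1 at an unadjusted p under 0.05. The median ran from 0.15 to 0.85 over the alternatives. Without young APB 1 and 2 it was 0.60 with 13 of 13 above 0, and none had such a p. With the 3' to 5' gap as a covariate it was 0.64 with 13 of 13 above 0, and 1 had such a p. The gene with that p over all dogs was HLA-DRB1, a class II chain that shows peptides to T cells, with 11.3, 12.4 and 13.4 in senior dogs and 9.20, 10.2 and 12.1 in young dogs (lowest, median, highest). Its difference was 2.00 ± 0.60 (SE, 4.0-fold, limma adjusted p = 0.51). The T and NK cell markers had a median of 0.43, with 7 of 7 above 0 and 1 at an unadjusted p under 0.05. Without young APB 1 and 2 the median was 0.59, with 7 of 7 above 0 and 2 at such a p. CD3E, a chain of the T cell receptor complex, had a difference of 0.43, while CD4 and CD8A were near the floor of the array in both ages, with medians of 2.21 to 2.45. Inflammation and acute-phase genes had a median of 0.23 with 15 of 17 above 0, SAA1 and TNF being those with an unadjusted p under 0.05. Its median ran from 0.10 to 0.38 over the alternatives, and neither gene had such a p without young APB 1 and 2. TNF differed by only 0.12, at 2.74 to 3.03 in senior dogs and 2.66 to 2.74 in young dogs, near the floor of the array. IL6 stood at 2.39 to 2.46 in all dogs, and 6 of the 17 genes had a mean under 4.

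**Figure D5:**
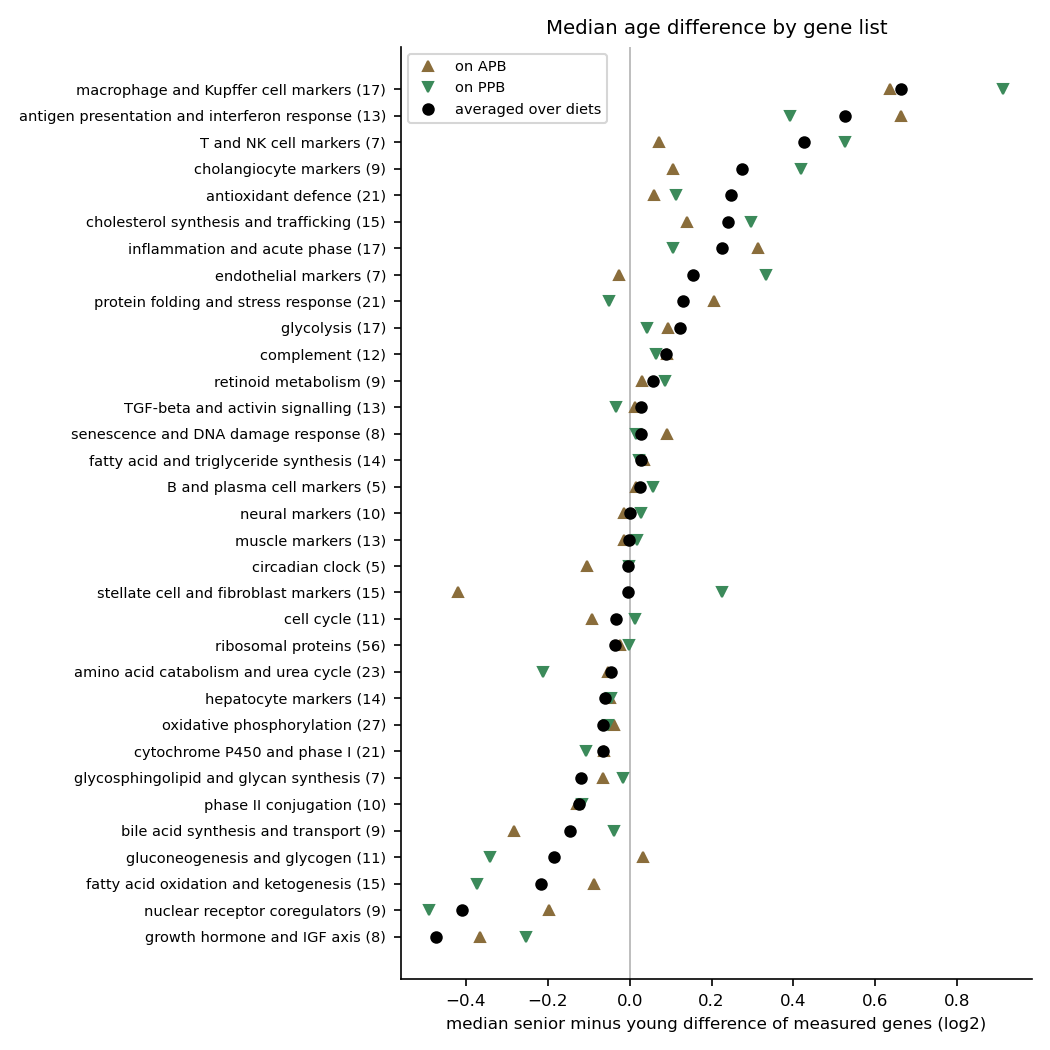
Median senior minus young difference (horizontal axis, log2) over the measured genes of each list with 5 or more measured genes (rows, number in parentheses), on APB, on PPB and averaged. The macrophage and Kupffer cell markers (0.66) are at the top and the growth hormone and IGF axis (-0.47) at the bottom.

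The growth hormone and IGF axis, which drives body growth through the liver, had the lowest median at -0.47, with 2 of 8 measured genes above 0. LIFR, the leukemia inhibitory factor receptor, was the one list member with an unadjusted p under 0.05. The study classed LIFR under leukemia inhibitory factor signaling, not under growth hormone or IGF. Its difference was -0.76 ± 0.19 (SE, limma adjusted p = 0.40), while a dimmer LIFR probe set had 0.87 (adjusted p = 0.60). Without young APB 1 and 2 the median of the list was -0.76, with 3 genes lower at an unadjusted p under 0.05, and with the 3' to 5' gap as a covariate it was -0.63 with 4 genes lower. IGF1 ranged from 3.69 to 6.63 (median 5.61) in senior dogs and from 4.54 to 7.24 (median 6.18) in young dogs. IGFBP1, a binding protein that insulin lowers, ranged from 5.62 to 12.0 in senior dogs and from 8.78 to 13.5 in young dogs, and its difference of -2.04 ± 1.21 (SE) did not pass (limma adjusted p = 0.79).

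Nuclear receptor coregulators, which join receptors to transcription, had a median of -0.41 (-0.54 to -0.22 over the alternatives), with 1 of 9 above 0. NCOA2 ranged from 4.45 to 6.02 (median 5.5) in senior dogs and from 5.91 to 8.38 (median 7.12) in young dogs, overlapping by 1 pair of dogs. Its difference was -1.81 ± 0.29 (SE, 3.5-fold lower, limma adjusted p = 0.21). NCOA1 had a difference of -0.58 ± 0.10 (adjusted p = 0.22). The activin and TGF-beta list that holds FST had a median of 0.03, and its 4 genes with an unadjusted p under 0.05 were all lower in senior dogs. Their number was 1 without young APB 1 and 2, and 2 with the gap as a covariate. THBS1, thrombospondin 1, which can activate latent TGF-beta, had a difference of -1.33 (-2.10 on APB and -0.56 on PPB; adjusted p = 0.37), and the receptors BMPR1A and ACVR2A had -0.58 and -0.60.

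Of 17 glycolysis genes, 3 were higher and none lower at an unadjusted p under 0.05. They were PFKFB3, which makes the activator of phosphofructokinase, and the enolases ENO3 and ENO1. PFKFB3 had a difference of 1.01 (0.38 on APB and 1.63 on PPB), ENO3 1.82 (2.00 and 1.64) and ENO1 0.30 (0.36 and 0.24). Of 11 genes of gluconeogenesis and glycogen, 4 were lower and none higher. PCK1, the rate-limiting step of gluconeogenesis from lactate and amino acids, ranged from 10.0 to 13.5 (median 12.9) in senior dogs and from 13.2 to 14.3 (median 13.9) in young dogs, a difference of -1.38 ± 0.50 (SE, limma adjusted p = 0.61). The others were GSK3B, UGP2 and G6PC1, the last step of glucose release. GSK3B had -0.76 (-1.18 on APB and -0.34 on PPB), G6PC1 -0.69 (-0.56 and -0.82) and UGP2 -0.48 (-0.41 and -0.55). Without young APB 1 and 2 the counts were 1 of 17 higher and 2 of 11 lower.

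Detoxification genes had no common direction. Of 21 phase I genes, 2 had higher and 4 had lower values in seniors with an unadjusted p under 0.05, and of 10 conjugation genes 2 had lower values. Without young APB 1 and 2, these counts were 0 and 1 of the phase I genes and 1 of the conjugation genes. CES2, a carboxylesterase, had a difference of 1.27, and CYP2B6 had -1.31. UGT1A6, which joins glucuronic acid to phenols, separated the ages at 12.2 to 13.3 (median 12.9) in senior dogs and 13.3 to 13.9 (median 13.7) in young dogs, with a difference of -0.86 ± 0.16 (SE, limma adjusted p = 0.31).

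RDH16, which oxidises retinol, was the one list gene past the adjusted p without reaching 2-fold, at a difference of 0.93 ± 0.12 (SE, 1.91-fold, limma adjusted p = 0.099). Its senior dogs lay at 12.9 to 13.1 (median 13.0) and its young dogs at 11.7 to 12.9 (median 11.9), overlapping. Genes of amino acid catabolism and the urea cycle had a median of -0.04, with 10 of 23 above 0. Without young APB 1 and 2 the median was -0.19, and with the 3' to 5' gap as a covariate it was -0.22. In each of these settings 1 of 23 was above 0. Among them with all dogs, DAO, the D-amino acid oxidase, had a difference of 1.10, and KMO, of the kynurenine route of tryptophan, had -1.11 (both limma adjusted p = 0.36).

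Fatty acid oxidation genes had a median of -0.22, with 4 of 15 above 0 and none at an unadjusted p under 0.05. Without young APB 1 and 2 the median was -0.37 and 1 of 15 was above 0.

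Several lists stood near the median of all genes. The hepatocyte markers had a median of -0.06, oxidative phosphorylation -0.07 over 27 genes and ribosomal proteins -0.04 over 56 genes, 6 of them with higher and 1 with lower values at an unadjusted p under 0.05, which became 1 and 1 without young APB 1 and 2. Bile acid genes lay lower than these, with a median of -0.15 (-0.34 to -0.11 over the alternatives) and 3 of 9 genes above 0. The transporters ABCC2 (-0.66) and SLC10A1 (-0.37) were lower at an unadjusted p under 0.05. The cell cycle list had a median of -0.03 over 11 genes, 2 higher and 2 lower, GTSE1 at 0.78 and NUSAP1 at -1.14 among them.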

How the data were processed

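Liver RNA of 12 dogs was measured on canine gene arrays, each dog on an array of its own. Per the submitters' processing notes, the authors made the deposited log2 values with GCRMA (version not given in the sources used here). GCRMA adjusts background from probe sequence and quantile-normalizes arrays, so dim probe sets are compressed and their differences understated. No further normalization was applied here. Gene symbols came from the platform annotation, and neighbours from the RefSeq gene table of a German Shepherd assembly. Group means were fitted in R 4.3.3 (limma 3.58.1, empirical Bayes) with Benjamini-Hochberg adjustment over 23836 probe sets. The text names genes past the threshold, up to 12 per direction with the largest difference among those apart and over 2-fold on both diets, the 3 members of a described list with the smallest p, defining markers, and genes needed to describe these. Genes apart on 1 diet and further list members (IGF1, IGFBP1, TNF, GSK3B, G6PC1, UGP2 and others of the lists) were added after their values were seen. The 34 lists (462 of 842 genes measured) used the brightest probe set per gene. The members and lists were chosen with earlier results of these data known. Precision is set by how many arrays there were. The fit was also tested on simulated data. Alternatives were filters on dim probe sets, other thresholds, priors, models and normalizations, array weights, a replicate block, the 3' to 5' gap as a covariate, and leaving out arrays.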

Additional observations from a re-analysis of the deposited data

Results flagged for a closer look

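In 5 of the groups of 6 dogs examined for the named probe sets, the highest or the lowest dog stood far from the others relative to the group's range. They were LOC607080 in young dogs (young APB 1 at 6.83), GPM6A 1603937_at in young dogs (young PPB 2 at 3.27), CTSK in young dogs (young PPB 2 at 6.89), SPP2 in senior dogs (senior APB 3 at 2.18) and 1589612_s_at in senior dogs (senior APB 2 at 4.15). In all, 44 groups were examined, and chance alone gives such a dog in about 1 in 20 groups. In CTSK, GPM6A and SPP2 the dog lay on the far side from the other age, and in LOC607080 and 1589612_s_at it was the dog nearest to the other age.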

How the results depend on the processing

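The direction of the age difference of the 8 probe sets past the threshold was kept under each alternative run. 1589612_s_at stayed past the threshold in all 26 (adjusted p 6.5e-05 to 0.057), while WFDC2 lost it in 8, GPM6A in 10 of 27 and GBGT1 and LOC607080 in 5. Of the LOC476006 probe sets, 1592122_s_at lost it in 7 of 27, 1583739_s_at in 4 of 27 and 1592145_s_at in 4 of 26. The count of 8 became 16 (9 higher, 7 lower) with only the probe sets whose third-highest value was at least 3 and 25 (13 and 12) with only those whose highest group mean was at least 4, which test 12425 and 8706 probe sets. NCOA2 and FST passed in both. It became 816 (324 and 492; all 8 among them) with array weights, 4 with the 3' to 5' gap as a covariate, 22 (10 and 12) without young APB 1 and 2, and 1 to 239 on leaving out each dog. The adjusted p of WFDC2, LOC607080, GPM6A and GBGT1 was 0.18, 0.11, 0.12 and 0.11 with that covariate. The cause was not tested. Without a fold minimum, the 51 and the 38 both became 105, necessarily the same, since complete separation fixes the direction on each diet. A probe set apart over all dogs stays apart with fewer dogs. On leaving dogs out, these counts can therefore lose members only through the fold minimum, and a rise is partly built in. The 51 became 81 without young APB 1 and 2 and 52 to 130 on leaving out each dog, and the 38 became 32 to 90. Both highest counts came without young PPB 3 (97 and 63 of them lower). The 51 also became 101 without senior PPB 1 and 84 without senior APB 2, and the 38 became 61 without senior APB 3 and 59 without senior PPB 1. Quantile normalization kept 40 of the 51 and 30 of the 38. The 3' to 5' difference ran from -2.28 to -1.07 on leaving out each dog.

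Dogs shared numbers across groups, but the labels give no pairing. Deviations of same-numbered dogs correlated at -0.38 to 0.45, and those of dogs with other numbers at -0.57 to 0.44. With the number as a replicate block, 8 probe sets passed (5 higher, 3 lower), WFDC2 and LOC476006 1592122_s_at missing it at an adjusted p of 0.109. Of the 12 dogs, 9 had their best match among the other groups in a dog of their own number. No chance share was computed for that count, and the part of the number was tested only by the block.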
